A study of Mus musculus with 27 samples.

Results

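Cells from cultures of hair follicle stem cells (HFSCs) were compared with outer root sheath (ORS) cells taken directly from back skin, gene by gene. All mice were wild-type, and both kinds of cell were measured by 10x Genomics single cell RNA-sequencing. Mouse 1 and mouse 2 each gave 1 skin matrix, labelled AnaVI for late anagen at postnatal day 32, and 1 culture matrix. By the study's methods, the skin suspension had been depleted of CD45+, CD31+, CD140a+ and CD117+ cells, which are blood, vessel, fibroblast and melanocyte lineages. The matrices nevertheless held many cells rich in fibroblast transcripts, 6219 of 14458 and 6421 of 13915 skin cells that passed the quality limits. Each culture matrix held 1 line, grown from CD34+ HFSCs of that mouse on inactivated feeder cells, passaged, and split over basement membrane droplets whose cells were tagged and pooled. Both media used here held all-trans retinoic acid (atRA) and an inhibitor of protein kinase C (PKCi) in addition to BMP2/4, with or without R-spondin (Rspo).

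A cell was kept with at least 500 genes, at least 1000 UMIs (unique molecular identifiers, each counting 1 captured RNA molecule) and under 10% of its UMIs from mitochondrial genes. Beyond these limits, cultured cells were chosen without regard to their expression, by at least 20 hashtag counts of which at least 70% came from the BMP or the Rspo+BMP hashtag. In vivo cells were chosen by expression, with Krt5 and Krt14 at 0.2% or more of UMIs, at least 2 UMIs of Tbx1, Barx2, Edn2 and Scrg1 together, and Krt1 and Krt10 under 0.1%. These rules gave 1776 cells of the 33246 barcodes in the 4 matrices, of which 28729 passed the quality limits. They comprised 224 cultured cells of mouse 1, 49 cultured cells of mouse 2, 789 in vivo cells of mouse 1 and 714 in vivo cells of mouse 2. UMIs were summed per mouse and side, so that the comparison rested on 2 sums against 2, and cells were not treated as replicates.

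The ORS is the epithelial sheath that surrounds the growing hair and joins the bulge, the niche of HFSCs, to the base of the follicle. Its cells express basal keratins and share transcription factors with HFSCs, and its upper part holds stem cells that serve later hair cycles. In culture, keratinocytes leave the signals of dermis, nerves and vessels, and often take up genes that skin otherwise uses during wound repair. Retinoic acid acts through nuclear receptors of the RAR and RXR families, and BMP signals act through SMAD proteins that switch on Id genes and oppose WNT-driven hair growth.

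The cultured side was defined by antibody-linked barcodes, which are shown because they alone decided membership among cells within the quality limits. Each is an oligonucleotide of 15 bases, printed in capitals since every base is read, and the pair differ at 12 positions.
BMP: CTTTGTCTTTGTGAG
Rspo+BMP: TATGCTGCCACGGTA
The nearest of the other 5 hashtags differed from these by 8 and 7 bases. The BMP hashtag marked 122 and 14 of the cultured cells in mice 1 and 2, and the Rspo+BMP hashtag marked 102 and 35. In mouse 1, 105 cells lay between 70% and 80% of hashtag counts and 14 between 60% and 70%, whereas mouse 2 had none in either range. A purity of at least 90% left 32 cells in mouse 1 and 46 in mouse 2, against 224 and 49.

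The 8 genes of the in vivo rule are given as a description, since they chose the cells on that side. Expression is in CPM, UMI counts scaled to a common normalized library size, with mouse 1 before mouse 2. Krt5, a basal keratin, stood at 4053 and 3423 CPM in culture and 2552 and 2160.4 CPM in vivo, and its partner Krt14 at 14686 and 11383 CPM in culture and 3291 and 2821 CPM in vivo. Of the 4 ORS genes, the transcription factor Tbx1 stood at 27.4 and 32.2 CPM in culture and 180.1 and 182 CPM in vivo. Barx2, a homeobox factor, stood at 30.3 and 27.1 CPM in culture and 477 and 494 CPM in vivo. Edn2, which encodes the vasoactive peptide endothelin 2, reached 0.343 and 0 CPM in culture and 52.5 and 56.8 CPM in vivo. Scrg1 had 0 UMIs in culture and 73.02 and 107 CPM in vivo. Suprabasal Krt1 and Krt10 stayed under 40 CPM in all 4 sums, with Krt10 at 37.9 and 32.2 CPM in culture and 27.01 and 22.7 CPM in vivo. The choice of cells fixed these levels in vivo, and nothing is read from the differences. Among in vivo cells of the keratin gate, 93 and 55 had 1 UMI of the ORS genes and fell just outside, and 100 and 46 had 2 and fell just inside. At the keratin limit, 127 and 167 cells lay between 0.15% and 0.2%, and 118 and 118 between 0.2% and 0.25%. Applied to the cultured cells, the same gate took 79 of 224 (35.3%) in mouse 1 and 19 of 49 (38.8%) in mouse 2.

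**Figure D1:**
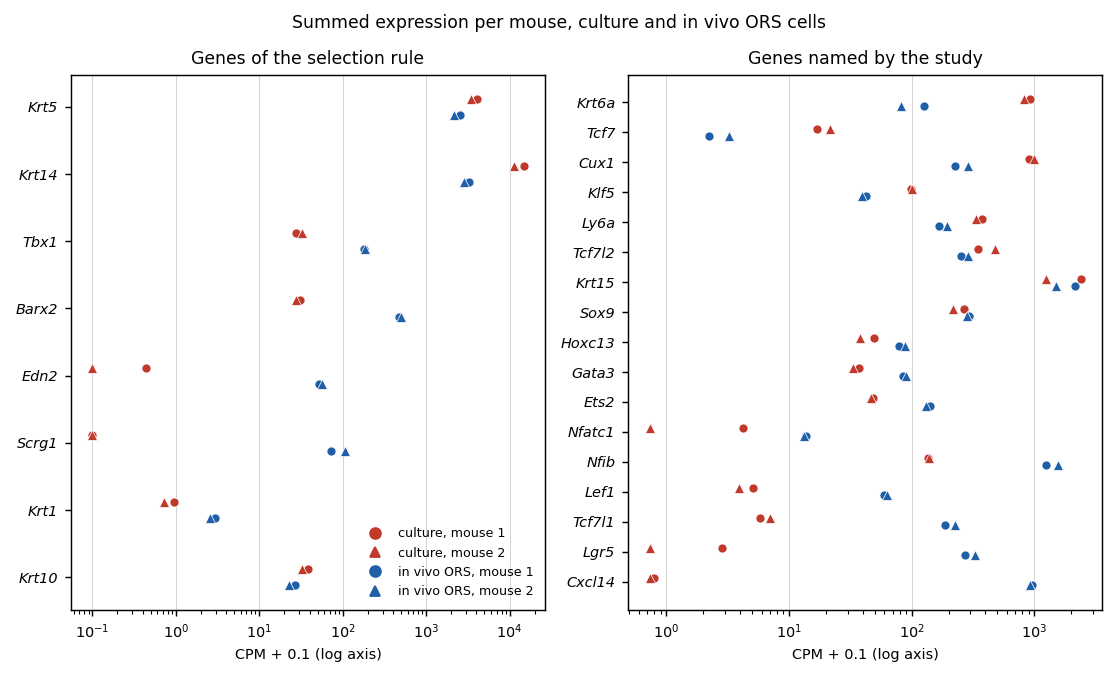
Expression of the 8 genes of the selection rule (left) and of 17 genes named by the study (right) in the 4 sums, on a log axis of CPM plus 0.1. Red marks culture, blue in vivo ORS cells, circles mouse 1 and triangles mouse 2; Sox9 and Krt15 lie together on both sides, whereas Cxcl14, Lgr5 and Tcf7l1 lie far to the left in culture.

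The sums held 7013260 and 1666616 UMIs in culture and 6455120 and 7511352 in vivo. Cultured cells were deeper, with medians of 31708.5 and 29244 UMIs against 7379 and 9647, and had more mitochondrial UMIs, with medians of 6.32% and 6.63% against 3.97% and 3.85%. The mitochondrial limit removed 153 and 62 hashtagged cultured cells and 3 and 7 gated in vivo cells. Between 0 and 5 barcodes were shared by a culture matrix and any other, and 62 by the skin matrices. Scrublet called 56 and 26 of the in vivo cells doublets, and called 0 cells in the small culture matrices, where it cannot be taken to have worked. Labels were also checked by sex-linked genes. Xist stood at 547 and 678 CPM in culture and 749 and 852 CPM in vivo, and Eif2s3y, Kdm5d and Uty had 0 UMIs in all 4 sums, while Ddx3y had 2 to 4 UMIs per sum, so no sum stood apart by sex. Skin and culture were dissociated by different enzymes and loaded as separate libraries, and these differences cannot be told apart from culture itself.

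Culture and in vivo ORS cells differed widely. Of 13515 genes tested, 1744 were higher in culture (12.9%) and 3013 were lower (22.3%), at adjusted p under 0.01 and a fold change over 2 on either side, by edgeR's quasi-likelihood test with Benjamini-Hochberg adjustment. The median log2 fold change of all tested genes was -0.14, and the values below are to be read against it. Counts of called members of a gene list are likewise to be read against the shares of 12.9% and 22.3%. All 3013 lower genes and 1742 of the 1744 higher genes had sums that did not overlap between sides, the exceptions being the noncoding loci Gm17359 and Gm15050, but so did 10574 of the 13515 genes tested. Across genes, which are not independent replicates, the difference between sides correlated at 0.935 between the mice, and 85.9% of genes had the same sign in both. Log2 CPM correlated at 0.974 between the culture sums and 0.983 between the in vivo sums, but at 0.699 and 0.676 between sides of 1 mouse. When libraries were scaled by their totals alone, 1190 genes were higher and 3901 lower, and the median moved to -0.49. With the in vivo gate applied to both sides, 1530 genes were higher and 2766 lower, and these included 1464 and 2617 of the genes above.

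**Figure D2:**
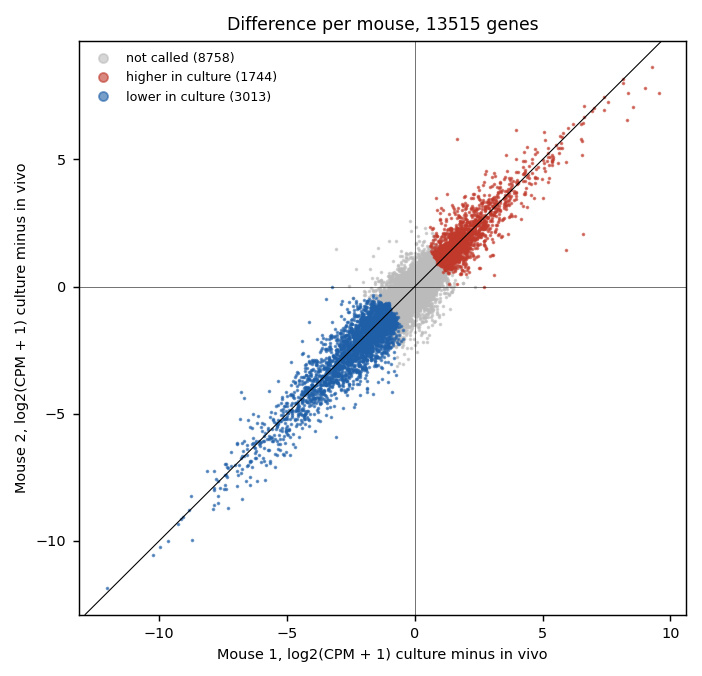
Difference between culture and in vivo ORS cells in mouse 1 (horizontal) and mouse 2 (vertical) as log2(CPM + 1), 1 point per tested gene, with 1744 genes called higher in red, 3013 called lower in blue and the others in grey. The points follow the diagonal in both directions.

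Which identity genes of HFSCs cells keep in culture was the first question. These genes split into a group that was close on both sides and a group that was far lower in culture. Fold changes are of culture over in vivo on the log2 scale, ± their standard error. Sox9 (ENSMUSG00000000567, chromosome 11 from 112782224 to 112787760), a transcription factor required for HFSC maintenance, stood at 269 and 216 CPM in culture and 295 and 282 CPM in vivo. The difference did not pass (log2 fold change -0.24 ± 0.18, adjusted p = 0.285), but against keratin-gated in vivo cells with no ORS UMI Sox9 was higher in culture (log2 fold change 2.02, adjusted p = 1.48e-06). Krt15 (ENSMUSG00000054146, chromosome 11 from 100131758 to 100135928), the keratin commonly used to mark the bulge, stood at 2398 and 1249 CPM in culture and 2146 and 1518 CPM in vivo. Its sums spread more widely within a side than between sides (log2 fold change -0.00 ± 0.31, adjusted p = 0.993). By medium, as CPM of own totals, Krt15 stood at 2138 and 2177 CPM in BMP cells and 1787 and 680 CPM in Rspo+BMP cells. Tcf7l2, a WNT effector, stood at 350.3 and 482 CPM in culture and 254 and 289 CPM in vivo and did not pass (log2 fold change 0.61 ± 0.20, adjusted p = 0.018). By contrast, Nfib (ENSMUSG00000008575, chromosome 4 from 82290173 to 82705750), a chromatin regulator of HFSCs, stood at 135 and 137 CPM in culture and 1243 and 1548 CPM in vivo, with sides that did not overlap (log2 fold change -3.36 ± 0.24, adjusted p = 1.17e-08). Tcf7l1 (ENSMUSG00000055799, chromosome 6 from 72626378 to 72789254), a repressor of WNT targets, stood at 5.65 and 6.94 CPM in culture and 188 and 227 CPM in vivo (log2 fold change -5.11 ± 0.24, adjusted p = 1.4e-10). In these genes both culture sums lay well below both in vivo sums, and so they did for Lgr5 and Cxcl14. Lgr5 (ENSMUSG00000020140, chromosome 10 from 115450311 to 115587780), a receptor for R-spondins that marks lower bulge and ORS, stood at 2.74 and 0.631 CPM in culture and 272 and 329.7 CPM in vivo (log2 fold change -7.05 ± 0.31, adjusted p = 8.17e-11). Cxcl14 (ENSMUSG00000021508, chromosome 13 from 56288643 to 56296551), a chemokine of resting HFSCs, stood at 0.685 and 0.631 CPM in culture and 965 and 929 CPM in vivo (log2 fold change -10.41 ± 0.37, adjusted p = 2.8e-11). Nfatc1, which restrains HFSC division, was low throughout at 4.11 and 0.631 CPM in culture and 13.8 and 13.03 CPM in vivo (log2 fold change -2.05 ± 0.38, adjusted p = 0.000266). This call was lost with at least 1000 genes and under 5% mitochondrial UMIs per cell, with cells thinned to 3000 UMIs and without cycling cells (adjusted p = 0.189, 0.158 and 0.162), and after thinning Nfatc1 was seen in 3.67 and 3.59% of ORS and 4.56 and 4.06% of fibroblast-gated cells.

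Of the 17 genes that the study names for identity, plasticity and hair lineages, 4 were higher, 8 lower and 5 not called, with a median log2 fold change of -0.91 against -0.14 over all genes. The study chose these genes partly on such cells, so their counts are not independent evidence of a direction. Of 29 HFSC and bulge genes, 17 were lower and 4 higher (median -2.05). Lhx2, a transcription factor of the bulge, stood at 0.343 and 0 CPM in culture and 92.01 and 97.6 CPM in vivo. Cd34, a surface marker by which bulge cells are sorted, had 0 UMIs in culture against 1374 in vivo, at least 218-fold lower with a floor of 3 counts over the side. In fibroblast-gated cells of the same skin, however, Cd34 reached 594 and 443 CPM, above its 104 and 93.3 CPM in ORS cells on the same scale of own totals. Postn, a matrix protein, had 1 UMI in culture and 5632 in vivo, a ratio of 2676 (counting interval 480.1 to 105710), with 2073 and 2627 CPM in fibroblast-gated cells. The cells labelled HFSCs thus held Sox9 and Krt15, but Cd34, by which they had been sorted, and Lhx2 were at or near 0, and they are called cultured cells here. The 4 members that rose were Runx1, Lgr6, Id2 and Ccn2. Runx1, a factor active when HFSCs leave rest, rose from 124 and 151 CPM to 599 and 689 CPM (log2 fold change 2.23 ± 0.20, adjusted p = 1.95e-07). Lgr6, the R-spondin receptor of the upper follicle and epidermis, rose from 15.5 and 25.4 CPM to 194 and 237 CPM (log2 fold change 3.38 ± 0.22, adjusted p = 5.65e-09), opposite to its relative Lgr5. With the gate on both sides the median of the list was -2.06.

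Basal epithelial genes did not move together. Of 25, 6 were higher (24%), 5 lower (20%) and 14 not called (median -0.18), against 12.9% higher and 22.3% lower over all tested genes. The share of lower genes was thus near that of all genes. Those that rose included the integrins Itga2, Itgb1 and Itgb4 and the laminin chains Lama3 and Lamb3, which serve adhesion to matrix. Itga2, the collagen-binding integrin α2, rose from 11.5 and 13.7 CPM to 116 and 148 CPM (log2 fold change 3.36 ± 0.20, adjusted p = 1.24e-09). Lamb3 rose from 35.6 and 34.1 CPM to 188 and 218 CPM (log2 fold change 2.54 ± 0.17, adjusted p = 8.26e-09), and Lama3 from 72.5 and 106 CPM to 406 and 623 CPM (log2 fold change 2.52 ± 0.24, adjusted p = 4.03e-07). Those that fell were Cdh3, Egfr, Krt17, Tfap2c and Trp63. Trp63, the master regulator of stratified epithelia, fell from 662 and 812 CPM to 148 and 177 CPM (log2 fold change -2.19 ± 0.21, adjusted p = 4.01e-07). Krt17 (ENSMUSG00000035557, chromosome 11 from 100256217 to 100261029), a keratin of the ORS and of stressed epidermis, fell from 4261 and 2967 CPM to 309.9 and 170.3 CPM (log2 fold change -3.89 ± 0.34, adjusted p = 1.25e-07). Of the 10 upper follicle markers, 9 were lower and 1, Klk10, higher (median -3.16), including Lrig1, a brake on EGF receptors, at 13.02 and 14.5 CPM in culture and 209.8 and 230.4 CPM in vivo and Krt79 at 2.06 and 0 CPM in culture and 173 and 129 CPM in vivo.

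Shares of cells with a UMI were compared after each cell was thinned to 3000 UMIs, which left out 29 and 6 cultured and 26 and 18 in vivo cells below that depth. Fibroblast-gated cells, which should lack these epithelial genes, served as a gauge of free RNA, with median depths of 9152 and 12067 UMIs. Throughout, CPM of fibroblast-gated cells are of their own totals. The in vivo CPM beside them are on the normalized scale, which runs slightly lower, unless own totals are named. Sox9 was seen in 40.5 and 41.9% of cultured cells, 50.98 and 51.4% of ORS cells and 2.25 and 3.03% of fibroblast-gated cells. Krt15 was seen in 84.1 and 72.1% and 70.5 and 72.4%, against 8.04 and 6.02% in fibroblast-gated cells. In ORS cells both genes were above this gauge, which comes from the skin libraries and does not measure free RNA in the culture libraries. Lgr5 was seen in 0.513 and 0% of cultured and 43.1 and 47.1% of ORS cells, and Lhx2 in 0 and 0% and 23.98 and 28.02%. At the deeper unthinned counts Lgr5 was still seen in 3.12 and 2.04% of cultured cells only, and Lhx2 in 0.446 and 0%. For 0 of 195 and 0 of 43 thinned cells, the exact 95% interval of the share with a UMI at this depth reaches 1.87% and 8.22%. Trp63 went from 81.1 and 87.1% in vivo to 34.9 and 32.6% in culture. It was seen in 16.1 and 19.9% of fibroblast-gated cells, a gauge for the in vivo shares only. Tcf7l1 and Nfib, which dermal cells also express, were seen in 33.8 and 38.4% and 67.9 and 76.5% of fibroblast-gated cells. Cdkn2a was seen in 50.8 and 46.5% of cultured cells and in 0.131 and 0.144% of ORS cells, and Krt16 in 80 and 79.1% and 1.44 and 0.718%.

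**Figure D3:**
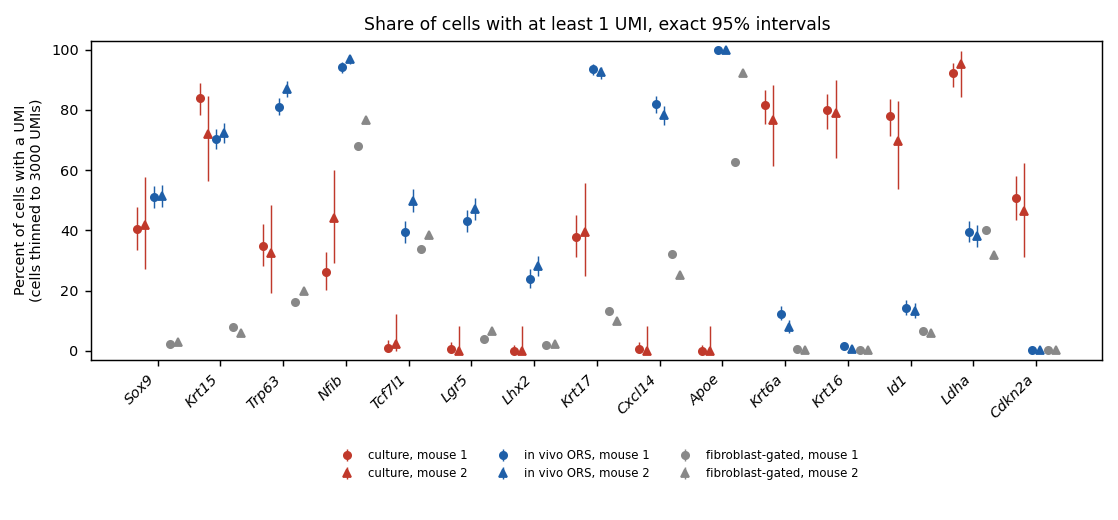
Percent of cells with at least 1 UMI of 15 genes after thinning to 3000 UMIs per cell, with exact 95% binomial intervals that cover counting error only. Sox9 and Krt15 are seen on both sides, Lgr5, Lhx2, Cxcl14 and Apoe in few or no cultured cells, Krt16 and Cdkn2a in under 2% of ORS cells, and Krt6a, Id1 and Ldha in larger shares of cultured than of ORS cells.

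Genes of wounded and stressed keratinocytes were higher in culture. Of 39 tested, 24 were higher and 4 lower, with a median log2 fold change of 1.84. Krt6a (ENSMUSG00000058354, chromosome 15 from 101689910 to 101694307), a keratin of wound edges that also marks the companion layer, rose from 125 and 81.7 CPM to 930.4 and 823 CPM (log2 fold change 3.08 ± 0.24, adjusted p = 3.43e-08). Krt16 (ENSMUSG00000053797, chromosome 11 from 100246091 to 100248902), its usual partner at wound edges, rose from 4.22 and 4.34 CPM to 881 and 660.3 CPM (log2 fold change 7.49 ± 0.28, adjusted p = 3.64e-11). Krt6b had 1 UMI in vivo and 762 in culture, a ratio of 1604 (counting interval 287 to 63432). These keratins are close copies, and reads shared between them could be assigned to either or dropped. S100a8 and S100a9, calcium-binding alarmins, rose from 0.985 and 3.88 CPM to 631 and 453 CPM and from 0.985 and 2.82 CPM to 1482 and 747 CPM (log2 fold changes 7.74 and 9.14, adjusted p = 1.81e-10 and 2.45e-10). Hmga2 (ENSMUSG00000056758, chromosome 10 from 120361275 to 120476469), an architectural protein of embryonic and proliferating cells, rose from 0.703 and 0.352 CPM to 166 and 185 CPM (log2 fold change 8.35 ± 0.28, adjusted p = 2.8e-11). S100a6 was among the most abundant culture transcripts at 16146 and 11724 CPM, against 1728 and 1479.7 CPM in vivo. The members that fell were Krt17, Krt19, Vim and Ets2. Ets2, an ETS family transcription factor, stood at 48.1 and 46.7 CPM in culture and 141 and 131 CPM in vivo (log2 fold change -1.51 ± 0.17, adjusted p = 1.88e-06). Klf5, the factor that the study pairs with Sox9 to define plasticity, rose from 42.2 and 39.2 CPM to 98.3 and 100.3 CPM (log2 fold change 1.28 ± 0.16, adjusted p = 6.66e-06). The Klf5 difference did not pass with library totals alone, and had the opposite sign (log2 fold change -0.78) against in vivo cells of the keratin gate with no ORS UMI.

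Cytokines, chemokines and parts of the cornification program also moved. Of 24 cytokine genes, 13 were higher and 5 lower (median 1.70), and with DESeq2 or with Rspo+BMP cells alone 8 were higher. Cxcl5 (ENSMUSG00000029371, chromosome 5 from 90759360 to 90761624), a neutrophil attractant, stood at 282 and 259 CPM in culture and had 0 UMIs in vivo, at least 1442-fold higher. Ppbp, from the same chemokine cluster, rose from 0 and 0.587 CPM to 373 and 209 CPM. Cxcl12, a homing signal, had 0 UMIs in culture and stood at 219 and 189 CPM in vivo, at least 501-fold lower. Fibroblast-gated cells held Cxcl12 at 211 and 207 CPM, near the 241 and 214 CPM of ORS cells as CPM of own totals. Epidermal differentiation genes went both ways, with 15 of 37 higher and 12 lower (median 0.59). Sprr1b, a precursor of the cornified envelope, had 0 UMIs in vivo and stood at 324 and 194 CPM in culture, at least 1543-fold higher. Sprr2h had 1 UMI in vivo and 419 in culture, and Krtdap rose from 8.72 and 11.3 CPM to 369 and 339 CPM (adjusted p = 6.24e-11). Spink5, a protease inhibitor of the cornifying layers that no list held, rose from 1.55 and 1.06 CPM to 435 and 360.1 CPM (log2 fold change 8.26 ± 0.28, adjusted p = 2.8e-11). Lgals7, an abundant keratinocyte galectin, fell from 4178 and 3602 CPM to 61.3 and 46.04 CPM (log2 fold change -6.15 ± 0.33, adjusted p = 5.02e-10), and Calml3 fell from 65.4 and 29 CPM to 1.03 and 0 CPM. Lor stood at 5.31 and 3.78 CPM in culture and 3.095 and 3.29 CPM in vivo, and Krt1 stayed under 3 CPM, with no call for either. The 12 largest increases also included the noncoding RNA U90926, at 508 and 226 CPM against 0 UMIs in vivo, Cstdc5 at 882 and 585 CPM in culture and 0.422 and 0.47 CPM in vivo, Ass1, which makes argininosuccinate, at 429.8 and 445 CPM in culture and 5.77 and 4.93 CPM in vivo, and 2200002D01Rik at 258 and 218 CPM in culture and 1.83 and 1.64 CPM in vivo.

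**Figure D4:**
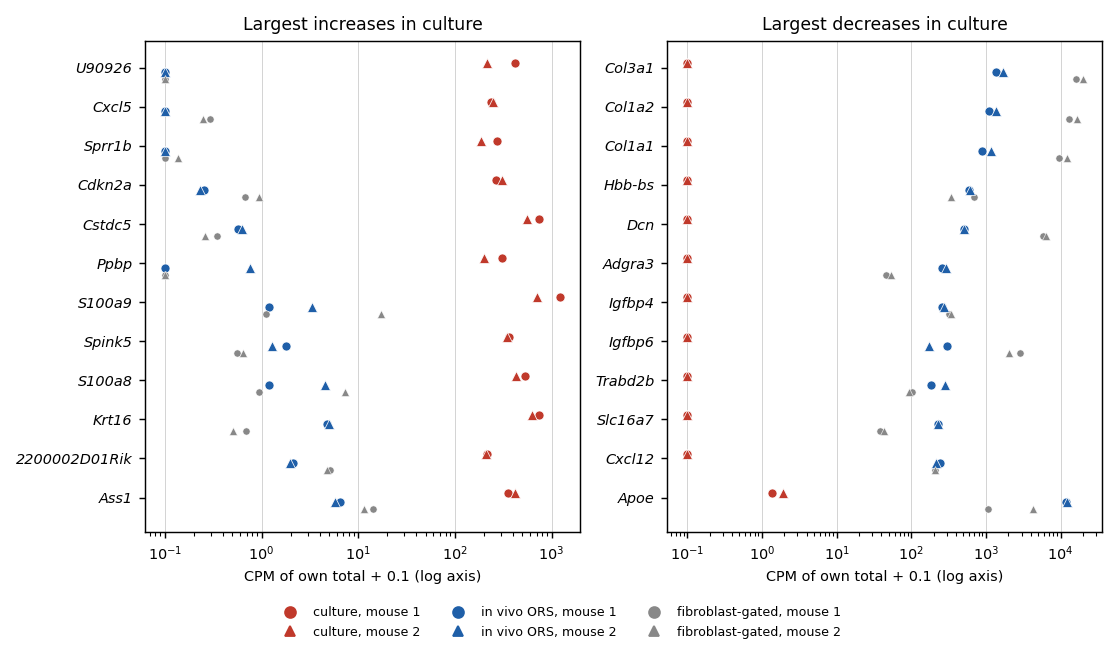
The 12 largest increases and 12 largest decreases among called genes with a mean of at least 100 CPM, as CPM of each sum's own total plus 0.1 on a log axis. Grey marks fibroblast-gated cells of the same skin, which were chosen by Col1a1, Col1a2 and Col3a1. They hold more of these collagens, Dcn and Igfbp6 than the ORS cells, and less Apoe, Adgra3, Slc16a7 and Trabd2b.

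Most glycolysis genes were higher in culture. Of 21 tested, 16 were higher and 2, Ldhb and the monocarboxylate transporter Slc16a1, lower, with a median log2 fold change of 2.14. Aldoa was left out, since 2 gene identifiers carry its symbol. The summed level of the list was 12210 and 10650 CPM in culture and 1566 and 1403 CPM in vivo. Gapdh (ENSMUSG00000057666, chromosome 6 from 125161715 to 125166467) rose from 468 and 369 CPM to 4684 and 3754 CPM (log2 fold change 3.33 ± 0.29, adjusted p = 1.27e-07). Ldha (ENSMUSG00000063229, chromosome 7 from 46841475 to 46855627), the subunit of lactate dehydrogenase that favors lactate production, rose from 178 and 159 CPM to 2084 and 1839 CPM (log2 fold change 3.54 ± 0.25, adjusted p = 9.07e-09). Ldhb, the other subunit of the enzyme, fell from 61.9 and 85.6 CPM to 2.23 and 1.89 CPM (log2 fold change -5.09 ± 0.30, adjusted p = 1.34e-09). Pgk1 (ENSMUSG00000062070, chromosome X from 106187100 to 106203699), which yields ATP in the pathway, rose from 85.4 and 71.3 CPM to 1336 and 1251 CPM (log2 fold change 4.05 ± 0.24, adjusted p = 1.24e-09). The glucose transporter Slc2a1 rose from 28.7 and 29.8 CPM to 91.1 and 93.97 CPM, and the lactate exporter Slc16a3 from 1.13 and 1.17 CPM to 26.04 and 24.6 CPM (log2 fold changes 1.66 and 4.44, adjusted p = 4.93e-07 and 7.88e-09). In contrast, 71 of 79 nuclear genes of oxidative phosphorylation were not called, and their median of 0.27 turned to -0.06 with library totals alone.

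Promoters of the glycolysis genes were read from RefSeq (GRCm38.p6) as 250 bases before to 50 after each annotated start, 300 bases in all. The letters ACGTG, the core of the element bound by hypoxia-inducible factors, were searched on both strands and also lie within some E-boxes. They occurred in 15 of 31 promoters of the list without Aldoa (48.4%) and in 19.6% of all 32851 promoters. By gene, they occurred for 11 of the 16 higher genes and also for Pfkm, which was not called, and Slc16a1, which was lower. A match is a description of the sequence and not a binding site, and promoter base composition was not taken into account. Stretches of 30 bases before the start of 4 higher genes and of Slc16a1, shown for contrast, are given on the gene's strand with the matched letters in capitals.
Ldha: ggtgtcgcagcacACGTGgagccactcttg
Pgk1: cgcgtcgtgcaggACGTGacaaatggaagt
Pgam1: gcgctccttgcttACGTGcgctccgtgact
Slc2a1: agtcccgccccggACGTGctccccaggccc
Slc16a1: gcggcgccgggtcACGTGgcgggaaggggg
They lie at chr7:46845647-46845676, chrX:106186937-106186966, chr19:41911744-41911773, chr4:119108696-119108725 and chr3:104638452-104638481, all on the plus strand, and the match begins 144, 150, 114, 36 and 199 bases before the start. Beside these letters, Pgam1 rose from 125 and 114 CPM to 1265 and 1119.5 CPM (log2 fold change 3.32 ± 0.22, adjusted p = 6.44e-09), and Slc16a1 fell from 14.1 and 20.2 CPM to 3.77 and 9.46 CPM (log2 fold change -1.69 ± 0.35, adjusted p = 0.000811).

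Antioxidant genes were mixed. Of 26 targets of NRF2, a factor that responds to oxidants, 12 were higher and 4 lower (median 0.77). These are 46.2% and 15.4%, against 12.9% and 22.3% over all tested genes. Gsta4, a glutathione transferase for lipid aldehydes, rose from 5.91 and 7.98 CPM to 621 and 499.5 CPM (log2 fold change 6.32 ± 0.25, adjusted p = 4.54e-11). Ferritin heavy chain Fth1 rose from 1155 and 1113 CPM to 7399 and 6415 CPM (log2 fold change 2.61 ± 0.30, adjusted p = 2.93e-06). Other transferases fell, with Gstm5 going from 293 and 241 CPM to 8.57 and 3.78 CPM and Mgst1 from 298 and 265 CPM to 4.797 and 1.26 CPM (log2 fold changes -5.20 and -6.16, adjusted p = 3.14e-10 and 1.58e-10). Fibroblast-gated cells held Mgst1 at 500 and 527 CPM, above the 328 and 301 CPM of ORS cells as CPM of own totals. Gstm5 was lower there than in ORS cells. Nqo1, a standard readout of NRF2, stood at 12.7 and 6.94 CPM in culture and 9.004 and 10.3 CPM in vivo.

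The cell cycle inhibitors Cdkn2a, Cdkn2b and Cdkn1a were higher in culture, and many genes of replication and mitosis lower. Cdkn2a (ENSMUSG00000044303, chromosome 4 from 89274471 to 89294653), the locus of the p16 and p19 tumor suppressors, stood at 322 and 322 CPM in culture, where it had 2387 UMIs, and had 2 UMIs in vivo. The ratio was 2512 (counting interval 695 to 20755) (adjusted p = 2.29e-11). Gene counts do not tell p16 from p19. Its neighbor Cdkn2b rose from 9.14 and 4.58 CPM to 64.2 and 58.7 CPM (log2 fold change 3.19 ± 0.25, adjusted p = 4.29e-08), and Cdkn1a, the p53 target p21, from 71.3 and 64 CPM to 342 and 285 CPM (log2 fold change 2.22 ± 0.18, adjusted p = 6.62e-08). Ccnd1, a cyclin of G1, also rose, from 165 and 146 CPM to 450.2 and 406 CPM (log2 fold change 1.47 ± 0.18, adjusted p = 6.73e-06). Of the 12 cyclin, kinase and inhibitor genes of this list, 5 were higher, these 4 and Cdk6, and 2 lower, the cyclin Ccnd3 and the inhibitor Cdkn2c. Its median of 0.33 turned to -0.01 with library totals alone. Of 28 replication genes, 18 were lower and 0 higher (median -1.51), and of 28 mitosis genes, 21 were lower and 0 higher (median -1.49). Mki67, a marker of cycling cells, fell from 98.5 and 107 CPM to 14.6 and 23.3 CPM (log2 fold change -2.56 ± 0.21, adjusted p = 7.47e-08). Fibroblast-gated cells held Mki67 at 45.1 and 58 CPM, against 108 and 121 CPM in ORS cells as CPM of own totals. After thinning it was seen in 7.41 and 10.6% of fibroblast-gated, 14.2 and 14.2% of ORS and 4.1 and 2.33% of cultured cells. The part of free RNA in the differences of cycle genes was not tested. The helicase subunit Mcm6 fell from 40.9 and 43.3 CPM to 6.85 and 6.31 CPM (log2 fold change -2.65 ± 0.23, adjusted p = 9.39e-08). Cenpf, a kinetochore protein, stood at 10.96 and 40.99 CPM in culture and 71.8 and 84.2 CPM in vivo, where mouse 2 lay closer to the in vivo level. Without culture mouse 1, 13 mitosis genes were lower, and with cells thinned to 3000 UMIs 6 were. With cells holding a UMI of Mki67, Top2a, Cdk1 or Ccnb1 left out on both sides, 0 mitosis genes were lower and 1 higher. This removed 72.3 and 77.6% of cultured and 50.4 and 59.2% of in vivo cells, and left 62 and 11 cultured cells. Since cells were left out by genes of the cycle itself, part of this outcome was built in, and nothing is read from it.

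BMP targets showed the Id genes apart from each other. Id1 (ENSMUSG00000042745, chromosome 2 from 152736251 to 152737410), the most direct target, rose from 63.6 and 53.8 CPM to 746 and 545 CPM (log2 fold change 3.46 ± 0.22, adjusted p = 4.12e-09). Id2 rose from 72.3 and 45.6 CPM to 609.7 and 516 CPM and Id3 from 131 and 67.9 CPM to 471 and 399 CPM (log2 fold changes 3.26 and 2.13, adjusted p = 1.49e-08 and 4.19e-06). Id4 fell from 237 and 251 CPM to 17.8 and 18.9 CPM (log2 fold change -3.74 ± 0.20, adjusted p = 4.74e-10). The inhibitory SMADs, which BMP induces as feedback, were higher, with Smad7 going from 22.5 and 19.7 CPM to 198 and 199 CPM and Smad6 from 8.86 and 11.04 CPM to 24.2 and 37.2 CPM. Both media held BMP2/4, and no culture without it was compared here. Of all 33 BMP genes, 9 were higher and 13 lower (median -0.70). The lower ones included the secreted antagonist Nbl1 at 1.199 and 0 CPM in culture and 77.4 and 62.9 CPM in vivo and Fstl1, with 0 UMIs in culture and 166 and 171 CPM in vivo. Fibroblast-gated cells held Fstl1 at 1888 and 1676 CPM and Nbl1 at 154 and 123 CPM.

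Retinoid genes were split as well, although both cultures held atRA. Of 26, 5 were higher and 13 lower (median -0.75), which is 19.2% and 50% against 12.9% and 22.3% over all tested genes. Stra6 (ENSMUSG00000032327, chromosome 9 from 58063788 to 58153996), a retinol transporter, rose from 4.22 and 3.52 CPM to 287 and 293 CPM (log2 fold change 6.23 ± 0.22, adjusted p = 2.93e-11). Dhrs3, which turns retinal back into retinol, rose from 58.2 and 64.5 CPM to 162 and 179 CPM (log2 fold change 1.47 ± 0.17, adjusted p = 2.34e-06). Cyp26b1, which breaks down retinoic acid, rose from 1.97 and 2.94 CPM to 24.5 and 26.5 CPM (log2 fold change 3.33 ± 0.28, adjusted p = 8.49e-08). The binding proteins Crabp2 and Fabp5 were the other members that rose. Dhrs9 and Sdr16c5, enzymes that oxidize retinol, fell, from 172 and 193 CPM to 3.43 and 1.26 CPM and from 45.7 and 36.8 CPM to 0 UMIs. Rarb, a receptor gene that retinoic acid usually induces, stood at 0.343 and 0.631 CPM in culture and 10.6 and 19.7 CPM in vivo (log2 fold change -5.16 ± 0.58, adjusted p = 1.95e-06). After thinning, Rarb was seen in 2.23 and 5.32% of ORS cells and in 3.85 and 3.96% of fibroblast-gated cells. Its in vivo level was thus near that of fibroblast-gated cells. Whether those cells express Rarb themselves was not tested, so they cannot serve as a gauge of free RNA for it. Cyp26a1 had 0 UMIs in culture and 1 in vivo. The receptor Rarg did not pass, at 51.4 and 56.1 CPM in culture and 58.8 and 64 CPM in vivo (adjusted p = 0.311), nor did its partner Rxra, at 37.3 and 32.8 CPM in culture and 49.7 and 51.5 CPM in vivo (adjusted p = 0.0207).

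The retinoic acid response element of type DR5, a pair of half-sites with a spacer of 5 bases, was searched in the same promoters, which 20 genes of the list have. It occurred in 32 of the 32851 (0.0974%) and in 2 of 36 promoters of the list, those of Rarb and Cyp26a1, neither of which was higher. They are shown because they are the retinoid genes with the element in this window, with the element in capitals.
Rarb: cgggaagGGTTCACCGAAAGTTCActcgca
Cyp26a1: ttaaagaTGAACTTTGGGTGAACTaatttg
They lie at chr14:16575507-16575536 on the minus strand and chr19:37697769-37697798 on the plus strand, 53 and 32 bases before the start, and the Cyp26a1 element reads on the opposite strand. The higher genes Stra6, Dhrs3 and Cyp26b1 had 0 matches in these windows, which says only that the letters are not there.

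WNT genes moved in both directions. Of 36 tested, 18 were lower and 9 higher (median -0.79). Sfrp1, a secreted WNT inhibitor of the bulge, fell from 432 and 553 CPM to 1.199 and 1.26 CPM (log2 fold change -8.64 ± 0.33, adjusted p = 3.84e-11). Fzd1, a WNT receptor, fell from 58.4 and 51.7 CPM to 2.06 and 0.631 CPM (log2 fold change -4.98 ± 0.30, adjusted p = 2.17e-09). In fibroblast-gated cells Fzd1 stood at 52.1 and 56.9 CPM, near the 64.3 and 58.6 CPM of ORS cells as CPM of own totals. Axin2, a target that reports WNT signaling, rose from 7.32 and 9.16 CPM to 26.9 and 20.2 CPM (log2 fold change 1.56 ± 0.24, adjusted p = 5.12e-05), and the ligand Wnt4 from 42.5 and 38.3 CPM to 207 and 146 CPM (log2 fold change 2.15 ± 0.19, adjusted p = 1.53e-07). The effectors of the pathway divided. Lef1, the factor of hair progenitors, fell from 59.7 and 62.9 CPM to 4.97 and 3.78 CPM (log2 fold change -3.71 ± 0.23, adjusted p = 3.06e-09), whereas Tcf7 rose from 2.11 and 3.17 CPM to 16.8 and 21.4 CPM (log2 fold change 2.78 ± 0.31, adjusted p = 1.9e-06). Fibroblast-gated cells held Lef1 at 54.9 and 60.97 CPM, near the 65.7 and 71.4 CPM of ORS cells as CPM of own totals. After thinning, Lef1 was seen in 11.7 and 13.8% of ORS cells and in 10.9 and 12.98% of fibroblast-gated cells. The in vivo level of Lef1 was thus near that of fibroblast-gated cells. Whether those cells express Lef1 themselves was not tested, so they cannot serve as a gauge of free RNA for it. The part of free RNA in the Lef1 difference was not tested. Values for each medium, as CPM of own totals, are side by side and were not tested against each other. Axin2 stood at 8.14 and 3.54 CPM in BMP cells and 43.4 and 27.2 CPM in Rspo+BMP cells, Lgr5 at 0.239 and 0 CPM and 5.29 and 0.908 CPM, and Id1 at 661 and 545 CPM and 561 and 505 CPM. Sox9 stood at 247 and 269 CPM in BMP cells and 191 and 173 CPM in Rspo+BMP cells. BMP cells alone gave 1481 higher and 3034 lower genes against the in vivo sums, and Rspo+BMP cells alone 1470 and 2487, with the same in vivo sums in both.

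Among 24 transcription factors of hair lineages, 8 were higher and 9 lower (median -0.75). These are 33.3% and 37.5%, against 12.9% and 22.3% over all tested genes. Cux1, a factor of the inner root sheath, rose from 227 and 288 CPM to 903 and 993 CPM (log2 fold change 1.88 ± 0.21, adjusted p = 2.49e-06), and Foxq1, a factor of the hair medulla, from 12.5 and 8.92 CPM to 192 and 173 CPM (log2 fold change 4.10 ± 0.20, adjusted p = 2.57e-10). Hoxc9 and Hoxc4, which mark position along the body, rose from 3.24 and 1.996 CPM to 58.8 and 46.7 CPM and from 5.77 and 7.398 CPM to 43.2 and 45.4 CPM. Gata3, a factor of the inner root sheath, fell from 84.7 and 90.5 CPM to 37.3 and 33.4 CPM (log2 fold change -1.29 ± 0.17, adjusted p = 1.19e-05). Hoxc13, a regulator of hair keratins, stood at 48.8 and 37.8 CPM in culture and 78.9 and 88.2 CPM in vivo and missed the fold change limit (log2 fold change -0.91 ± 0.18, adjusted p = 0.000443). Of 14 tested genes of the inner root sheath and companion layer, 8 were lower and 4 higher (median -2.85, or -2.41 with genes at 0 set to their bound). Krt71 and Krt25, keratins of the inner root sheath, had 0 UMIs in culture and stood at 81.7 and 46.6 CPM and 68.9 and 33.5 CPM in vivo. Fibroblast-gated cells, which do not make them, held 88.1 and 43.5 CPM and 70.1 and 38.3 CPM, so these in vivo levels were at the background of the skin libraries. Hair shaft genes were mostly too low to test, with 14 of 20 left out.

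Extracellular matrix genes were mostly lower in culture. Of 57, 38 were lower and 6 higher, among them Itgb6, Lama3, Lamb3, P4ha2 and Timp1 (median -3.16, or -2.77 with genes at 0 set to their bound). Their summed level was 3333 and 3826 CPM in culture and 9526 and 10770 CPM in vivo. Col3a1, Col1a2 and Col1a1, the fibrillar collagens, had 0 UMIs in culture and stood at 1229 and 1509.5 CPM, 999.6 and 1220.5 CPM and 797 and 1038 CPM in vivo, at least 3419-, 2771- and 2297-fold lower. All 10 fibroblast markers were lower in culture, 8 of them with 0 UMIs there, and took 0.429% and 0.529% of UMIs in ORS cells against 0.000143% and 0.00018% in cultured cells. Fibroblast-gated cells, which were chosen by Col1a1, Col1a2 and Col3a1, held Col3a1 at 16311 and 19709 CPM on the same scale as the 1353 and 1711 CPM of ORS cells. Leaving out in vivo cells with 0.5% or more of UMIs from fibroblast and mural genes together, an alternative added after seeing the data, lowered Col3a1 to 643 and 890.0 CPM and left 1718 genes higher and 2836 lower. Hbb-bs, a hemoglobin gene of red blood cells, had 0 UMIs in culture and 542 and 532 CPM in vivo, and 683 and 345 CPM in fibroblast-gated cells. Of the 3013 lower genes, 1213 (40.3%) were higher in fibroblast-gated than in ORS cells in both mice, and 545 (18.1%) were more than 2-fold higher in ORS cells than in all other skin cells in both mice. Over all 13515 tested genes these shares were 32.3% and 7.44%. The part of free RNA from other cells in these differences was not tested.

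Apoe and several other genes that fell were higher in ORS than in fibroblast-gated cells. Apoe (ENSMUSG00000002985, chromosome 7 from 19696109 to 19699188), a carrier of lipids, was the most abundant protein-coding transcript outside the mitochondrial genes in vivo and fell from 10851 and 10856 CPM to 1.54 and 1.89 CPM (log2 fold change -12.69 ± 0.55, adjusted p = 7.64e-11). It reached 1058 and 4207 CPM in fibroblast-gated cells and 1579 and 3195 CPM in all other skin cells, below its 11948 and 12308 CPM in ORS cells of the same scale. Adgra3, an adhesion receptor, had 0 UMIs in culture and 234 and 255 CPM in vivo, at least 607-fold lower, with 45.4 and 53.1 CPM in fibroblast-gated cells. Slc16a7, a transporter of pyruvate and lactate, had 0 UMIs in culture and 209 and 202 CPM in vivo, with 37.9 and 43.3 CPM in fibroblast-gated cells. Trabd2b, an inhibitor of WNT ligands, had 0 UMIs in culture and 169 and 246 CPM in vivo, with 102 and 94.1 CPM in fibroblast-gated cells. Tagln, a contractile gene, stood at 0.685 and 0 CPM in culture and 347 and 299 CPM in vivo, with 41.5 and 42.3 CPM in fibroblast-gated cells. Acta2, smooth muscle actin, stood at 16.96 and 8.199 CPM in culture and 301 and 209.8 CPM in vivo, with 67.1 and 64.5 CPM in fibroblast-gated cells. Mural markers took 0.0911% and 0.0742% of UMIs in ORS cells, and without the cells rich in fibroblast and mural UMIs Tagln stood at 169 and 136 CPM in vivo against 382 and 339 CPM with them, as CPM of own totals. Of 26 cholesterol genes, 8 were higher, all enzymes of sterol synthesis, and 4 lower, Abca1, Abcg1, Apoe and Dhcr7 (median 0.56). These are 30.8% and 15.4%, against 12.9% and 22.3% over all tested genes. Cyp51, an enzyme of sterol synthesis, rose from 42.5 and 44.6 CPM to 183 and 164 CPM (log2 fold change 2.00 ± 0.17, adjusted p = 7.66e-08). The exporter Abca1 had 0 UMIs in culture and 58.5 and 66.9 CPM in vivo, and unlike the genes above was higher in fibroblast-gated cells, at 144 and 160.3 CPM against 64.4 and 75.9 CPM in ORS cells as CPM of own totals.

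Immediate early and stress genes were lower in culture, with 21 of 37 lower and 3, Gadd45b, Hspb1 and Ier3, higher (median -1.13). Fos and Jun, subunits of AP-1, fell from 1059.7 and 800.5 CPM to 239 and 168 CPM and from 1291 and 1022 CPM to 179.9 and 144 CPM. Zfp36, which destabilizes cytokine messages, fell from 224 and 171 CPM to 16.96 and 10.7 CPM (log2 fold change -3.71 ± 0.23, adjusted p = 2.93e-09), and the heat shock gene Hspa1a from 164 and 123 CPM to 9.25 and 6.94 CPM (log2 fold change -4.05 ± 0.24, adjusted p = 1.24e-09). Fibroblast-gated cells of the same suspensions held Fos at 1669 and 1418 CPM, Zfp36 at 511 and 462 CPM and Hspa1a at 300 and 182 CPM, above the ORS cells. By the labels, skin was digested with collagenase and trypsin and cultures with TrypLE, and these steps cannot be told apart from the side. Interferon-stimulated and antigen presentation genes were also lower, with 17 of 26 lower and 2 higher (median -1.96). Tap1, a peptide transporter, fell from 30.7 and 26.8 CPM to 1.71 and 0.631 CPM (log2 fold change -4.27 ± 0.34, adjusted p = 4.16e-08), and B2m, the light chain of class I molecules, from 282 and 283 CPM to 102 and 95.9 CPM (log2 fold change -1.51 ± 0.17, adjusted p = 2.76e-06). The 2 that rose were Ifitm3, at 1237 and 798 CPM in culture and 299 and 347 CPM in vivo, and Bst2, at 126 and 120.5 CPM in culture and 14.6 and 50.4 CPM in vivo. The Bst2 call was lost with DESeq2 (adjusted p = 0.0465), and that of Ifitm3 against in vivo cells with no ORS UMI (log2 fold change 0.43, adjusted p = 0.158). Both were also lost at 1000 genes and 5% mitochondrial UMIs (adjusted p = 0.115 and 0.0203) and without cycling cells (0.0158 and 0.125).

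Ribosomal protein genes took more of the culture sums, with a summed level of 295300 and 220900 CPM in culture and 159700 and 138400 CPM in vivo. Of 78, 17 were higher and 1, Rpl39l, lower at a median log2 fold change of 0.68, and 60 were not called. The count of higher genes was 10 without culture mouse 1, 36 without culture mouse 2, and 5 and 2 without in vivo mice 1 and 2, while the median kept its sign with library totals alone (0.34). Of 38 translation factors, 34 were not called, Eef1g, Eif2s2 and Eif6 were higher and Eif3j1 was lower, and Eif2s2, a subunit of initiation factor 2, rose from 441 and 378 CPM to 1260 and 1233 CPM (log2 fold change 1.61 ± 0.22, adjusted p = 1.49e-05). Mitochondrially encoded genes, which the 10% limit touched, had a median of 1.04 and are given without a test. Of the other abundant transcripts, the nuclear RNA Malat1 stood at 72370 and 51082 CPM in culture and 21454 and 22843 CPM in vivo, and Gm42418, a locus that overlaps ribosomal RNA, at 10405 and 14196 CPM in culture and 32817 and 44415 CPM in vivo. Markers of other skin cells were mostly lower, with 7 of 7 melanocyte, 6 of 6 mural, 5 of 6 sebaceous and 3 of 4 immune genes tested lower, and 2 of 2 endothelial genes not called. The exceptions were Mbp of the Schwann cell list and Fabp4 of the adipocyte list, a fatty acid carrier, which rose while Ngfr and Car3 of those lists fell. Fabp4 had the opposite sign, at -0.87 on the log2 scale, against in vivo cells with no ORS UMI.

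**Figure D5:**
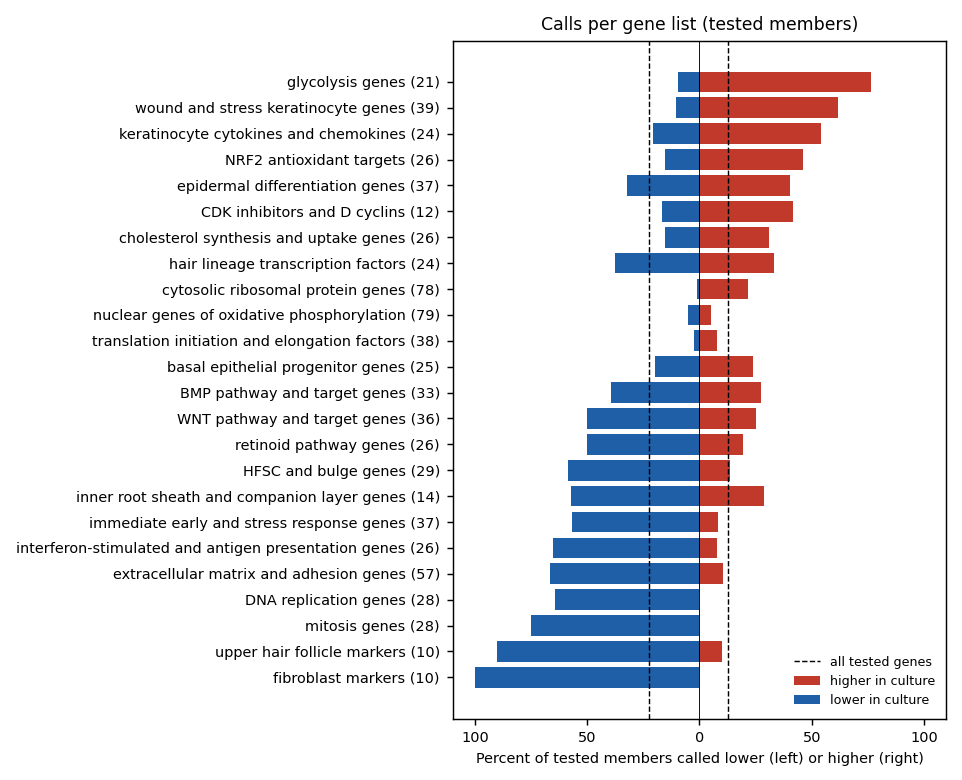
Percent of tested members of 24 gene lists called higher (red, right) or lower (blue, left) in culture, with the number tested in brackets and dashed lines at the shares of all tested genes, 12.9% higher and 22.3% lower. Glycolysis and wound genes extend farthest to the right, and fibroblast and upper follicle markers farthest to the left.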

How the data were processed

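The authors deposited 1 matrix per mouse and side of whole UMI counts per gene and barcode, made on mm10 with Cell Ranger (version 7.0.1 by the submitters' processing notes, 7.0.0 by the matrix header) and not normalized. Removal of free RNA and doublets, which the study's methods name, is not part of these values. Of 27 samples listed, the 4 single cell matrices were used, the hashtag counts being rows of the culture matrices, and the other samples were left out. With 1 line per mouse, p-values measure the spread between 2 mice, or between 2 lines. The culture sums also differ in medium mix, with 122 BMP and 102 Rspo+BMP cells in mouse 1 and 14 and 35 in mouse 2. The spread between them therefore includes any effect of medium.

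Cells were chosen by the rules in the text, with seed 11 for thinning and Scrublet in scanpy 1.11.5, and UMIs were summed per mouse and side. Tests used the quasi-likelihood method of edgeR 4.0.16 under R 4.3.3, on all 4 sums, after filterByExpr had kept 13515 of 32285 genes and with TMM scaling and Benjamini-Hochberg adjustment over the genes kept. A call needed a fold change over 2 in either direction and an adjusted p below 0.01. For culture mice 1 and 2 and in vivo mice 1 and 2 the TMM factors were 0.834, 0.954, 1.10 and 1.14. Standard errors were taken from the log2 fold change and its F statistic. Chi-square per gene between mice averaged 5.23 for culture and 9.67 in vivo, above counting error. Tested on simulated sums of this comparison (13015 genes), the method called 75.3% of the genes changed by 1.5 on the log2 scale, 93.9% of those changed by 3, and 1 unchanged gene. Only 93 and 99 genes were changed by these amounts, balanced between up and down, and all others had the same mean on both sides. In the data 35.2% of genes were called, more of them lower than higher, so these rates need not carry over.

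Sums with the same number come from the same mouse, by the study's methods, and so are paired by design. Their deviations from the side means correlated at 0.0562 over 13515 genes. The main fit was unpaired, and the mouse as replicate block was an alternative.

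Members and gene lists were chosen with earlier results of these data known. Genes named are the 8 of the rule, the 17 of the study, the 12 called genes that rose most and the 12 that fell most at a mean of 100 CPM or more, with no overlap between sides, up to 4 called members per list with the largest change at a mean of at least 20 CPM, the 5 most abundant genes per side, and 5 sex-linked genes. Other members of the lists named in the text were chosen after their values were seen, and 1 member is not reported here. Intervals of shares are exact (95%) and cover counting error only. Fibroblast-gated cells (6219 and 6421) had at least 1% of UMIs from Col1a1, Col1a2 and Col3a1 together and under 0.05% from Krt5 and Krt14. The gate thus fixed their high levels of these collagens. Positions are from GENCODE M21 (GRCm38), and promoters from RefSeq. Python 3.11.15 and matplotlib 3.10.9 drew the figures. Alternatives were DESeq2 1.42.0, other scalings, filters, gates, hashtag limits, thinning, the replicate block and leaving out each sum.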

Additional observations from a re-analysis of the deposited data

How the results depend on the processing

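The main fit called 1744 genes higher and 3013 lower in culture. With the replicate block the counts were 1760 and 3051, including 1706 and 2954 of the same genes, and of the named genes the block changed the call of Mitf (lost) and Malat1 (gained) and no other. Leaving out a sum in turn gave 1423 to 1942 higher and 2372 to 2979 lower genes. Higher genes fell to 798 with at least 1000 genes and under 5% mitochondrial UMIs per cell (32 and 6 cultured cells left), 640 without cells holding a UMI of Mki67, Top2a, Cdk1 or Ccnb1 (62 and 11 left) and 867 with cells thinned to 3000 UMIs, and rose to 3142 at adjusted p under 0.05 with no minimum fold change. Lower genes fell to 1525, 1144 and 1487 under the same first 3 settings, to 2000 with sums thinned to the smallest total and to 1980 against in vivo cells with 0 ORS UMIs. These settings hold fewer cells or UMIs, and the cause was not tested further. Against in vivo cells with 0 ORS UMIs, Sox9 turned to 2.02, Klf5 to -0.78 and Fabp4 to -0.87 on the log2 scale, and Barx2 and Tbx1, absent there by construction, to 9.17 and 9.18. DESeq2 gave 1538 and 2250 genes, and library totals alone 1190 and 3901. Of 132 named genes with a test, 84 kept their call under all alternatives, and 48 lost or gained it under at least 1. The second culture sum held 49 cells and 1666616 UMIs, which limits what can be tested in low genes.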
